A study of Mus musculus with 18 samples.

Results

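LLC and UN-SCC679, which are cell lines of mouse lung tumours carrying the same empty vector, were compared in 6 libraries, 3 of each line, out of 18 libraries in the series. The 6 were chosen by their titles, which name the line, the empty TPLKO vector and doxycycline. That rule used no measured value, but earlier results of these data were known when it was set. LLC (Lewis lung carcinoma) is labelled a lung adenocarcinoma of strain C57BL/6. UN-SCC679 is labelled a lung squamous carcinoma of strain A/J. Cells of both lines received doxycycline and no construct against Dstyk, although their phenotype label, DSTYK downregulation, is shared with the knockdown libraries. Of the other 12 libraries, 3 of each line hold the sh3 construct in TPLKO with doxycycline, and 3 of UN-SCC679 each hold empty pLENTI6 or pLENTI6 with wild-type DSTYK, with no treatment given in the labels. A single line stands for each tumour type, so tumour type, mouse strain and the history of one cell line cannot be told apart in any difference below. Nothing in the labels says that the numbered libraries of a line are separate cultures, and if they are not, the p-values describe technical spread alone.

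As background, lung adenocarcinomas usually resemble the secretory and alveolar cells of the lung and often express the lung transcription factor NKX2-1. Squamous carcinomas resemble the basal cells of stratified epithelia and typically express TP63, SOX2 and the basal keratins KRT5 and KRT14. Carcinoma cells can lose the junction genes of epithelia, such as those of E-cadherin and EpCAM, and express genes of mesenchymal cells instead. Dstyk, the kinase gene that the series altered in other libraries, was at 41.99 ± 1.97 CPM in LLC and 36.4 ± 0.921 CPM in UN-SCC679 (mean ± SD, n = 3; counts per 1000000 after scaling, CPM), a log2 difference of -0.21.

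The 6 libraries held between 41108479 and 46371244 estimated counts each. Differences are given as UN-SCC679 minus LLC on the log2 scale, and a gene is called at an adjusted p under 0.05 in edgeR's quasi-likelihood test with Benjamini-Hochberg adjustment over the 14351 genes tested. Of these genes 11900 were called (82.9%), 6031 higher in UN-SCC679 (42%) and 5869 higher in LLC (40.9%). Counts of called members in each gene list below are to be read against these 42% and 40.9%. At least 2-fold differences numbered 5065 (35.3%), with 2968 higher in UN-SCC679 (20.7%) and 2097 higher in LLC (14.6%), and differences of at least 4-fold numbered 2714 (18.9%). The libraries of the lines did not overlap for 12098 genes (84.3%). The spread within a line was small, with a median coefficient of variation over genes at 10 CPM or more of 2.49% in LLC and 2.65% in UN-SCC679, so small differences passed the test and a call alone says little about size. For scale, the same fit was made between the empty TPLKO and empty pLENTI6 libraries of UN-SCC679. These differ in vector, and the labels name doxycycline for TPLKO alone. The deposited counts also write the line's name differently for each, so the populations may differ in other ways. That fit called 9675 of 14080 genes (68.7%), 2030 of them at least 2-fold (14.4%) and 785 at least 4-fold (5.58%).

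The markers of lung and squamous tumours went with the labels only in part. Nkx2-1, the lung transcription factor often used to identify adenocarcinoma, had 0 counts in the 3 LLC libraries and 56.6, 54.04 and 55.3 CPM in the 3 UN-SCC679 libraries, at least 2412-fold higher in the line labelled squamous (against 3 counts over the group). Sox2, a transcription factor of basal and squamous cells, likewise had 0 counts in LLC and 39.01, 32.1 and 33.6 CPM in UN-SCC679. Trp63, the squamous regulator, was at 0.108, 0.0727 and 0.0693 CPM in LLC and 2.31, 2.25 and 1.92 CPM in UN-SCC679 (log2 difference 4.64, SE 0.320, adjusted p = 5.55e-08). All 3 regulators were therefore higher in UN-SCC679, with no overlap between the lines, but the level of Trp63 was low. The basal keratin gene Krt14 was at 0.0306 ± 0.0266 CPM in LLC and 3.03 ± 0.290 CPM in UN-SCC679, and Krt5, its partner, had 0 counts in both lines. Of the other adenocarcinoma markers, the surfactant gene Sftpc had 0 and 2 counts in the 3 libraries of LLC and UN-SCC679, and Napsa, the gene of the protease napsin A, had 12 and 19. Surfactant and napsin markers were thus at or near 0 in both lines.

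**Figure D1:**
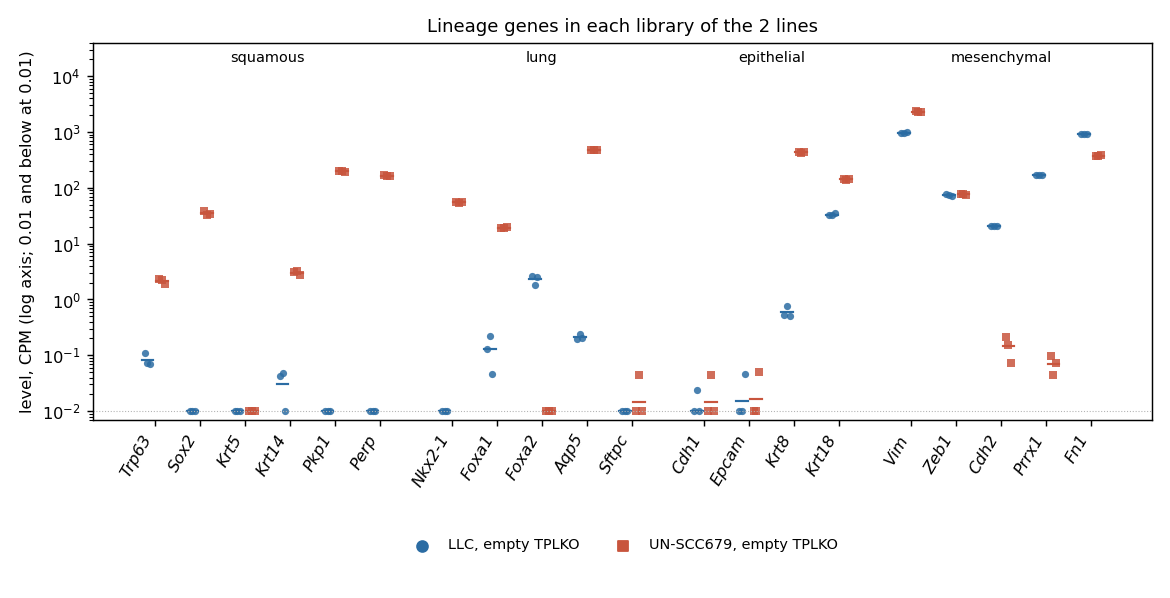
Level of 20 lineage genes in CPM on a log axis, one point per library (3 per line) and a bar at the mean, for LLC (circles) and UN-SCC679 (squares), with values of 0.01 and below drawn at 0.01. Nkx2-1, Sox2, Pkp1 and Perp sit on the floor in LLC and between 32.1 and 201 CPM in UN-SCC679, Cdh1, Epcam, Krt5 and Sftpc stay near the floor in both, and Cdh2 and Prrx1 are high in LLC only.

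Of 34 squamous and basal genes listed, 19 were expressed enough to be tested, and 10 were higher in UN-SCC679 and 6 in LLC (median log2 difference 1.02, against 0.014 over all tested genes). The genes with the most RNA among those higher in UN-SCC679 encode parts of desmosomes. Pkp1, the desmosomal plaque protein plakophilin 1, had 0 counts in LLC and 201, 200.2 and 196 CPM in UN-SCC679. Perp, a membrane protein of desmosomes, had 0 counts in LLC and 167, 166 and 163 CPM in UN-SCC679. Pitx1, a homeobox gene of the hindlimb that is also expressed in squamous epithelia, had 0 counts and 8.62 ± 0.985 CPM. On the other side, Bnc1, a zinc finger gene of basal keratinocytes, was at 58.4, 56.9 and 58.04 CPM in LLC and 2.12, 1.92 and 1.73 CPM in UN-SCC679, and Itga6, the integrin alpha chain of hemidesmosomes, at 441 ± 4.59 and 115 ± 2.26 CPM. Ngfr and Fat2, also on this list, were higher in LLC at under 1 CPM. The desmosomal cadherin gene Dsg3 and the squamous keratin gene Krt17 were not tested, with 1 and 0 counts and 0 and 0 counts.

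Lung genes were split between the lines as well: of 13 tested, 7 were higher in UN-SCC679 and 4 in LLC. Over all tested genes these shares were 42% and 40.9%. Aqp5, the water channel of alveolar type I and gland cells, was at 0.195, 0.242 and 0.208 CPM in LLC and 472, 479 and 476 CPM in UN-SCC679, a 2193-fold difference. Foxa1 and Foxa2, forkhead factors of endoderm, differed in opposite directions. Foxa1 was at 0.131 ± 0.0859 CPM in LLC and 19.2 ± 0.448 CPM in UN-SCC679, whereas Foxa2 was at 2.32 ± 0.435 CPM in LLC with 0 counts in UN-SCC679. Abca3, the transporter that loads surfactant lipid into lamellar bodies, was 2.28-fold higher in UN-SCC679 (40.96 ± 0.582 and 93.4 ± 2.55 CPM). Etv5, an ETS factor of alveolar type II cells and a target of ERK signalling, was 8.92-fold higher in LLC (156 ± 2.20 and 17.5 ± 0.695 CPM).

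Epithelial genes were expressed in part, and the genes of E-cadherin and EpCAM were near 0 in both lines. Cdh1, the gene of E-cadherin, had 1 and 2 counts in the 3 libraries of LLC and UN-SCC679, Epcam had 2 and 2, and the epithelial splicing factor gene Esrp1 had 0 and 3. Of 36 epithelial genes, 16 could be tested, with 10 higher in UN-SCC679 and 4 in LLC (median 1.75). The simple keratin pair was higher in UN-SCC679: Krt8 was at 0.519, 0.751 and 0.508 CPM in LLC and 439, 420.1 and 436 CPM in UN-SCC679. Krt18, which pairs with it in filaments, was at 32.03, 32.1 and 35.9 and 143, 138 and 145 CPM, so LLC held Krt18 RNA with almost none of Krt8. Jup, the gene of plakoglobin, which links cadherins to the cytoskeleton, was at 4.12 ± 0.120 CPM in LLC and 66.8 ± 0.651 CPM in UN-SCC679. Llgl2, a polarity gene, was 21.7-fold and F11r, the gene of the junctional adhesion molecule JAM-A, 6.26-fold higher in UN-SCC679. In the sh3 libraries the F11r difference was not called (log2 0.203, adjusted p = 0.0800 in edgeR). Ocln, the gene of the tight junction protein occludin, stood on the other side with 7.35 ± 0.259 CPM in LLC and 0.0457 ± 0.0397 CPM in UN-SCC679.

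Mesenchymal genes were expressed in both lines, by different members. Of 21 tested, 9 were higher in UN-SCC679 and 9 in LLC, against 42% and 40.9% of all tested genes. Vim, the intermediate filament vimentin, was at 961, 952 and 993 CPM in LLC and 2356, 2251 and 2332 CPM in UN-SCC679. Zeb1, a repressor of epithelial genes, was at 76.5, 73.6 and 72.8 and 77.1, 79.1 and 74.9 CPM, and this difference did not pass the test (log2 0.052, adjusted p = 0.133). LLC was higher for Prrx1, a homeobox gene of limb and craniofacial mesenchyme, with 172, 169 and 171 CPM against 0.0953, 0.0437 and 0.0740 CPM in UN-SCC679. Cdh2, the gene of N-cadherin, was at 20.4, 20.5 and 20.7 CPM in LLC and 0.214, 0.153 and 0.0740 CPM in UN-SCC679, and Snai2, another repressor of epithelial genes, at 70.2 ± 2.27 and 7.31 ± 0.499 CPM. Fstl1, a secreted glycoprotein, was 398-fold higher in LLC (284 ± 2.93 and 0.708 ± 0.0394 CPM). UN-SCC679 was higher for Postn, the matricellular protein periostin, with 30.3 ± 0.712 CPM against 0 counts in LLC, for Tnc, the gene of tenascin C (12.1-fold), and for Axl, a receptor kinase often expressed by mesenchymal cancer cells (2.03-fold).

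Markers of other cell types gave little signal. Of 8 leukocyte, 6 endothelial and 6 neuroendocrine markers, 2, 2 and 1 could be tested, and their summed levels stayed between 1.87 and 2.98, 0.878 and 1.76, and 0.247 and 0.786 CPM over the 6 libraries. The macrophage marker Csf1r and the endothelial marker Vwf were the members called, both higher in UN-SCC679 (0.785 and 0.487 CPM). The Vwf call was lost with limma (adjusted p = 0.0637) and without LLC library 1 (0.0544) or UN-SCC679 library 1 (0.0617). Fibroblast markers sat apart, with Pdgfrb and Col1a1 higher in UN-SCC679 and Pdgfra and Dcn higher in LLC, and their summed level ran from 34.8 to 38.00 CPM in LLC and from 772 to 780.5 CPM in UN-SCC679. These genes are also expressed by mesenchymal cancer cells, and the part of other cells in their levels was not tested. In these bulk libraries, fewer cells with a transcript and less RNA per cell cannot be told apart.

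Transcription factors of position and lineage separated the lines widely. Hox genes, which lie in 4 clusters and mark position along the body axis, differed by cluster. All 9 tested Hoxb genes were called higher in UN-SCC679 (median log2 difference 2.26), and all 6 tested Hoxd genes higher in LLC (median -4.03). In the Hoxa cluster 5 of 10 were higher in UN-SCC679 and 2 in LLC, and the 3 tested Hoxc genes, all under 1 CPM, were higher in UN-SCC679. Hoxd9 had 20.7, 19.9 and 20.04 CPM in LLC and 0 counts in UN-SCC679, and Hoxa11 had 10.3, 10.8 and 10.4 CPM and 0 counts. Hoxb13, a gene of the tail end of the axis, was at 0.0864, 0.0727 and 0.0462 CPM in LLC and 10.3, 10.6 and 9.94 CPM in UN-SCC679, and Hoxb9 was at 10.7 ± 0.571 and 34.7 ± 1.35 CPM. Hoxd9 and Hoxa11 thus had counts in LLC alone, while Hoxb13 and Hoxb9 were higher in UN-SCC679, with Hoxb9 expressed in both lines.

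Among 35 tested lineage factors outside the Hox clusters, 22 were higher in UN-SCC679 and 10 in LLC. Of the forkhead genes, Foxd1, of kidney stroma and retina, had 0 counts in LLC and 64.6, 52.3 and 55.9 CPM in UN-SCC679. Foxf1, of lung mesenchyme and endothelium, was at 3.07 ± 0.293 CPM in LLC and 54.2 ± 3.25 CPM in UN-SCC679. Tbx20, a T-box gene of the heart, was 76.4-fold higher in UN-SCC679, and Id4, an inhibitor of helix-loop-helix factors, had 2 counts in LLC and 6.10 ± 0.604 CPM in UN-SCC679. LLC expressed other factors: Pax6, of eye and pancreas, was at 19.7, 22.5 and 17.8 CPM in LLC and 0.238, 0.219 and 0.321 CPM in UN-SCC679. Gata4, a zinc finger factor of heart and gut, was at 18.2 ± 0.646 and 0.408 ± 0.128 CPM, Dlx2, a homeobox gene of forebrain and jaw, at 24.6 ± 1.26 and 0.200 ± 0.128 CPM, and Isl1, a LIM homeobox gene of motor neurons and heart, at 6.28 ± 0.150 and 0.0311 ± 0.0366 CPM. Each of these differences was larger than the spread within the lines, with adjusted p of at most 1.02e-09.

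Genes of the extracellular matrix gave some of the widest differences at high levels. Of 18 tested collagen genes, 12 were higher in UN-SCC679 and 5 in LLC (median 1.39). Col1a2, the alpha 2 chain of type I collagen, was at 1.47, 1.72 and 1.87 CPM in LLC and 11316, 11488 and 11627 CPM in UN-SCC679. Col1a1, the alpha 1 chain, was at 3.13, 3.15 and 3.35 and 518, 508 and 522 CPM. Both chains were near absent in LLC, and in UN-SCC679 their levels were unequal: per length, Col1a2 stood at 3706 and Col1a1 at 151 TPM (transcripts per 1000000). Col12a1, a collagen found on the surface of type I fibrils, was 180.3-fold, Col5a2 434-fold and Col8a1 59.3-fold higher in UN-SCC679. Col18a1, the basement membrane collagen that releases endostatin, stood on the other side, with 726, 732 and 735 CPM in LLC and 7.63, 6.58 and 7.10 CPM in UN-SCC679.

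Basement membrane and adhesion genes divided by subunit. Nid1, the gene of nidogen 1, which bridges laminin and type IV collagen, was at 1305, 1323 and 1287 CPM in LLC and had 1 count in all 3 UN-SCC679 libraries. Lama3 and Lamb3, laminin chains of epithelial anchoring, were higher in UN-SCC679: Lama3 was at 0.0855 ± 0.0527 and 4.10 ± 0.353 CPM and Lamb3 at 0.239 ± 0.121 and 17.8 ± 0.785 CPM in LLC and UN-SCC679. Lama5, the alpha chain of laminins 511 and 521, was 6.03-fold higher in LLC (587 ± 12.8 and 97.4 ± 1.58 CPM). Among integrins, Itgb7, the beta chain known from leukocyte homing, was at 550.2, 559 and 547 CPM in LLC and 2.48, 2.93 and 3.16 CPM in UN-SCC679. Its partner chain Itga4 was near 1 CPM in both lines (1.06 and 0.760 CPM) and did not pass the test. Itgb8, a chain of the integrin that activates latent TGF-beta, was 51.2-fold and Itgb5 3.55-fold higher in UN-SCC679, whereas Itga3, Itga5 and Itgb1 were between 2.18-fold and 2.24-fold higher in LLC. Over the list, 12 of 24 tested genes were higher in UN-SCC679 and 9 in LLC.

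Of the matrix proteases and their inhibitors, Timp3 and Timp2 reached high levels in UN-SCC679. Timp3, the tissue inhibitor that binds to the matrix, was at 0.0864, 0.218 and 0.162 CPM in LLC and 3945, 3990.04 and 3957 CPM in UN-SCC679, and Timp2 at 190.3, 185 and 191 and 1818, 1817 and 1838 CPM. Secreted metalloproteases differed in both directions: Mmp2, a gelatinase, was at 0.0319 ± 0.0371 CPM in LLC and 10.2 ± 0.557 CPM in UN-SCC679. Mmp3 and Mmp13, the genes of stromelysin 1 and collagenase 3, were higher in LLC, at 26.4 ± 1.93 and 0.0863 ± 0.0908 CPM and at 3.85 ± 0.364 and 0.0570 ± 0.0622 CPM. Mmp14, the membrane-bound metalloprotease, was nearly level (284 ± 2.42 and 306 ± 1.08 CPM, log2 difference 0.11). Of 24 tested proteases and inhibitors, 13 were higher in UN-SCC679 and 9 in LLC, against 42% and 40.9% of all tested genes. Thbs1, the matricellular protein thrombospondin 1, which was on no list and was chosen after its values were seen, was at 2.01, 2.28 and 2.22 CPM in LLC and 9558, 9679 and 9789 CPM in UN-SCC679.

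Most of the common lung cancer genes were transcribed in both lines, and the exceptions included the Cdkn2a locus. Cdkn2a, which encodes the cell cycle inhibitors p16Ink4a and p19Arf, lies on the minus strand of chromosome 4 at 89274471 to 89294653 (GRCm38). It had 0 counts in LLC and 135, 126 and 127 CPM in UN-SCC679, at least 5636-fold higher. Its neighbour Cdkn2b, the gene of p15Ink4b, had 0 counts in LLC and 18.7, 17.98 and 18.5 CPM in UN-SCC679. On the centromeric side, Mtap, whose start lies 158 kb from that of Cdkn2a, was at 125 CPM in LLC and 137 CPM in UN-SCC679, and Klhl9, at 572 kb, was at 82.8 and 68.4 CPM. On the other side Elavl2 and Tusc1, at 2106 and 4041 kb, had 0 counts in LLC and 45.4 and 5.22 CPM in UN-SCC679. From Cdkn2a to Tusc1, the expressed genes with a curated symbol thus all had 0 counts in LLC. Gene models with Gm, Rik or accession names were left out, so the interval was not examined in full. On the centromeric side the pseudogene Mrpl48-ps, at 695 kb, and Cntln, at 4410.3 kb, also had 0 counts in LLC (4.07 and 29.9 CPM in UN-SCC679). The other expressed genes with a curated symbol between Cntln and Cdkn2a had RNA in both lines. Counts of RNA do not tell a lost locus from a silent one. In UN-SCC679, transcript Cdkn2a-202, which starts at the upstream first exon of the Arf reading frame, held 92.3, 94.2 and 94.8% of the Cdkn2a counts in the 3 libraries, and Cdkn2a-201 the rest.

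**Figure D2:**
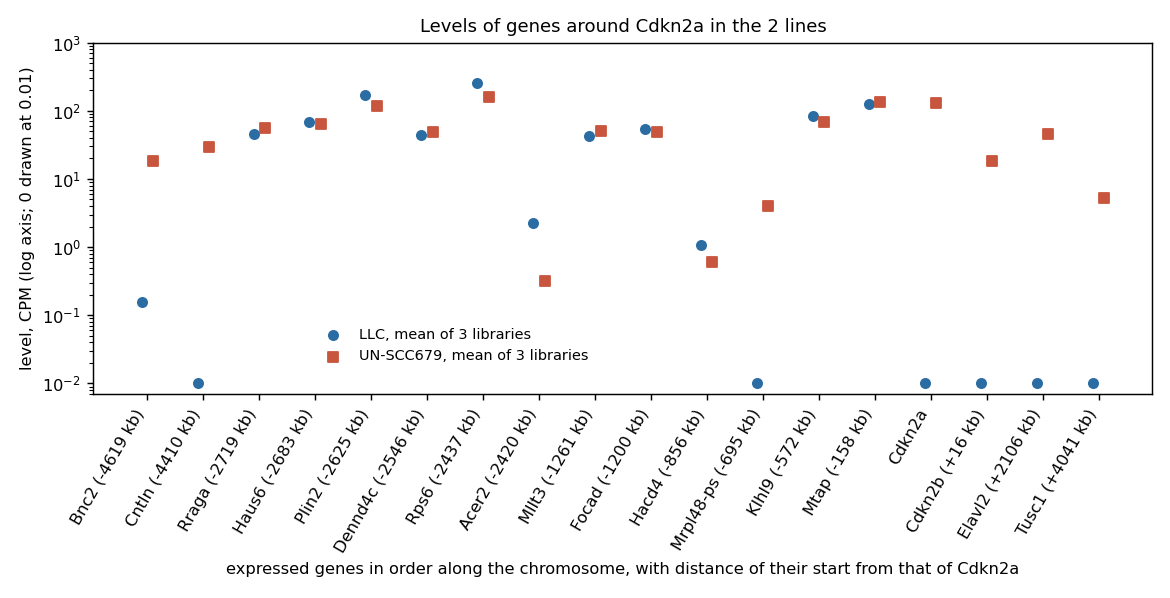
Mean level in CPM (log axis, 0 drawn at 0.01, 3 libraries per line) of genes around Cdkn2a for LLC (circles) and UN-SCC679 (squares). Genes are those expressed within 5000 kb of Cdkn2a with a curated symbol, in chromosome order. Cntln, Mrpl48-ps, Cdkn2a, Cdkn2b, Elavl2 and Tusc1 lie on the floor in LLC, while the other genes from Rraga to Mtap are present in both lines.

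Other cell cycle and tumour suppressor genes were detected in both lines. Cdkn1a, the inhibitor p21 and a p53 target, was at 102, 98.5 and 96.9 CPM in LLC and 5.46, 5.53 and 4.44 CPM in UN-SCC679 (19.2-fold higher in LLC). Myc was at 511, 514 and 529 and 115, 113 and 116 CPM, 4.52-fold higher in LLC. Nras was expressed in both, at 163 ± 1.48 and 216 ± 2.26 CPM. Trp53, the gene of p53, was at 203 ± 2.55 and 163 ± 3.93 CPM, Rb1 at 16.1 ± 1.46 and 17.5 ± 0.730 CPM with no call, and Stk11 and Keap1 were 1.74-fold and 2.13-fold higher in UN-SCC679. Notch1, whose receptor controls squamous differentiation, was at 30.1 ± 0.895 CPM in LLC and 2.44 ± 0.112 CPM in UN-SCC679. These RNA levels say nothing of mutations in the genes. Across 40 tested oncogenes and tumour suppressors, 22 were higher in UN-SCC679 and 17 in LLC, against 42% and 40.9% of all tested genes.

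p53 target genes did not differ as a block: 15 of 29 were higher in UN-SCC679 and 12 in LLC (median 0.17). Over all tested genes these shares were 42% and 40.9%. Pmaip1, the gene of the cell death protein Noxa, was at 0.454, 0.581 and 0.601 CPM in LLC and 101, 96.1 and 94.7 CPM in UN-SCC679. Plk2, a kinase of the centrosome cycle, was 7.03-fold higher in UN-SCC679. Sesn2, the stress-induced sestrin 2, was 10.5-fold, Eda2r 6.25-fold and Gadd45a 4.73-fold higher in LLC, while Mdm2, the ubiquitin ligase of p53, was 1.29-fold higher in UN-SCC679.

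Receptor kinases and their ligands showed different sets in the 2 lines. Of 29 tested receptor tyrosine kinase genes, 20 were higher in UN-SCC679 and 9 in LLC (median 1.02). Met, the receptor of hepatocyte growth factor, was at 117, 118 and 116 CPM in LLC and 574, 576 and 567 CPM in UN-SCC679. Pdgfrb, a receptor of platelet-derived growth factors, was at 8.92 ± 1.22 and 252 ± 4.89 CPM. Eph receptors, which bind membrane-bound ephrins, contributed several of the differences: Epha7 had 3 counts in LLC and 142, 142 and 139 CPM in UN-SCC679, Ephb2 was 147-fold and Ephb3 10.1-fold higher in UN-SCC679, and Epha4 was at 0.0288 ± 0.0499 and 26.9 ± 1.25 CPM. Ror1 and Ror2, related receptors of Wnt5a, lay on opposite sides, Ror1 with 2 counts in LLC and 20.6 ± 1.12 CPM in UN-SCC679, and Ror2 with 2.55 ± 0.0532 CPM in LLC and 0 counts in UN-SCC679. Egfr was 3.11-fold, Fgfr1 3.26-fold and Ddr2, a collagen receptor, 5.32-fold higher in LLC.

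Of the EGF family ligands, Areg, Tgfa, Ereg and Btc were called higher in LLC, and Nrg1, Egf and Hbegf higher in UN-SCC679. Hbegf differed by 0.17 (log2), and its call was lost with the length offset (adjusted p = 0.0938 in edgeR) and without LLC library 2 (0.0830) or UN-SCC679 library 1 (0.0561). Areg, the gene of amphiregulin, was at 49.9, 49.3 and 49.9 CPM in LLC and 1.02, 0.919 and 1.18 CPM in UN-SCC679, Tgfa at 6.001 ± 0.625 and 0.147 ± 0.0261 CPM, and Ereg at 36.1 ± 1.67 and 9.17 ± 0.876 CPM. Nrg1, the ligand of ERBB3 and ERBB4, was at 1.58, 1.24 and 1.13 CPM in LLC and 136, 139 and 143 CPM in UN-SCC679. Its receptor genes were low, Erbb3 at 0.381 and 0.818 CPM and Erbb4 at 0 counts in both, whereas Erbb2 was at 35.2 ± 3.23 and 69.1 ± 1.33 CPM. Vegfa, the main angiogenic factor, was 6.98-fold higher in LLC (297 ± 1.16 and 42.6 ± 0.450 CPM). Ligands of the TGF-beta superfamily were higher in UN-SCC679 for Inhba, the subunit of activin A, at 2.38, 2.28 and 2.50 CPM in LLC and 401, 375 and 364 CPM in UN-SCC679, for Tgfb2 (76.9-fold) and for Bmp4 (65.6-fold), and higher in LLC for Tgfb1 (2.56-fold) and Bmp1, which is a protease despite its name (3.46-fold). Csf1, the macrophage growth factor, was at 193 ± 1.82 CPM in LLC and 953 ± 4.71 CPM in UN-SCC679. The whole list was split, with 15 of 33 higher in UN-SCC679 and 17 in LLC, against 42% and 40.9% of all tested genes.

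Interferon response genes were higher in UN-SCC679 with few exceptions. As background, cells detect viral or misplaced nucleic acid through cGAS with its adaptor STING for DNA and through RIG-I and MDA5 for RNA. The resulting interferon signal acts through a complex with STAT2 and IRF9, which binds the interferon-stimulated response element of target promoters. To show that element, promoters of 4 list members were read from the RefSeq promoters of GRCm38.p6, as the 250 bases before the start, 5′ to 3′ on the strand of the gene. Capitals mark each match to the motif searched, which is TTTC, any 2 bases and TTTC again, or its reverse complement, GAAA at the same spacing, and overlapping matches run together. The promoters lie at chr4:156200819-156201068 (minus strand) for Isg15, at chr19:34640639-34640888 (plus strand) for Ifit1, at chr8:71537473-71537722 (minus strand) for Bst2 and at chr12:26456453-26456702 (minus strand) for Rsad2.
Isg15: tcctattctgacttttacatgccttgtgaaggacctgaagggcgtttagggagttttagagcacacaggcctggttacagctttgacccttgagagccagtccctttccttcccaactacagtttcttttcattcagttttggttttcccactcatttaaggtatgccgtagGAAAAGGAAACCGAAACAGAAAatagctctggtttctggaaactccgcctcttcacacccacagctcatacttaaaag
Ifit1: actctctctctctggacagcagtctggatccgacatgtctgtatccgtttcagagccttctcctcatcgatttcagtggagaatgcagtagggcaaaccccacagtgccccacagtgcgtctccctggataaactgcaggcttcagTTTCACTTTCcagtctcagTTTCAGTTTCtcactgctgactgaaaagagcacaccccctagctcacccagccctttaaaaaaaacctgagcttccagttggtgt
Bst2: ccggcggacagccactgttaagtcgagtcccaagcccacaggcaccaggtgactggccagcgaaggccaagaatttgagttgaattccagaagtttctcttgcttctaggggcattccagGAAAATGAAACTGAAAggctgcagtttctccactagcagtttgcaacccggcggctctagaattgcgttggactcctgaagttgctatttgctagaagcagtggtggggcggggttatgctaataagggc
Rsad2: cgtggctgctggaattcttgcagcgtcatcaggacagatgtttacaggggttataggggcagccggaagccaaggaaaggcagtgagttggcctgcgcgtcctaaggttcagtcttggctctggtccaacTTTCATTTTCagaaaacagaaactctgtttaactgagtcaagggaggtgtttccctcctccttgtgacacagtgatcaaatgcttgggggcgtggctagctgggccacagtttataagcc
The first 3 belong to genes higher in UN-SCC679 and hold 3, 2 and 2 matches, and Rsad2, with 1 match, was higher in LLC. Of 44 interferon genes listed, 31 matched a RefSeq promoter by symbol. The motif, searched on both strands, was in 15 of them and in 3.46% of all 27025 genes with a promoter of the same length. Of the 15 genes with the motif 14 were called higher in UN-SCC679, and of the 16 without it 12 were. Genes with and without these letters were thus both mostly higher in UN-SCC679.

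Over the list, 36 of 43 tested genes were higher in UN-SCC679 and 6 in LLC, with a median log2 difference of 2.93. Isg15, a ubiquitin-like modifier, was at 1.40, 1.502 and 1.39 CPM in LLC and 12.5, 14.4 and 11.9 CPM in UN-SCC679. Bst2, the gene of tetherin, which holds budding virus at the cell surface, was at 10.8, 9.33 and 11.9 and 207, 204 and 200.4 CPM. Ifit1, which binds foreign RNA caps, was at 0.0234 ± 0.0243 and 2.17 ± 0.153 CPM, a low level in both lines. Among guanylate-binding proteins and related GTPases, Gbp3 was 92.6-fold, Gbp2 19.3-fold, Igtp 14.8-fold and Irgm2 17.3-fold higher in UN-SCC679. Of the regulators, Stat2 was 4.34-fold and Irf9 2.23-fold higher in UN-SCC679, and Irf7 was at 0.339 ± 0.0695 and 5.85 ± 0.537 CPM. The receptor chain Ifnar1 was level (50.3 ± 0.659 and 48.3 ± 1.49 CPM, no call), and Ifnar2 was 1.77-fold higher in LLC. The effectors higher in LLC were Rsad2, at 0.843, 0.799 and 0.601 CPM in LLC and 0.167, 0.0656 and 0.123 CPM in UN-SCC679, and Mx1 and Ifit2, beside the receptor chain Ifngr2.

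The sensors themselves differed in both directions. Cgas, the DNA sensor, was at 0.238, 0.291 and 0.116 CPM in LLC and 33.03, 33.9 and 30.4 CPM in UN-SCC679. Tmem173, the gene of its adaptor STING, was at 61.2, 60.3 and 58.96 and 2.62, 2.51 and 2.98 CPM. Each line therefore held RNA mainly of one member of this pair, and the members differed in opposite directions. Ifih1, the gene of the RNA sensor MDA5, had 2 counts in LLC and 22.9, 25.7 and 24.7 CPM in UN-SCC679. Ddx58, the gene of the RNA sensor RIG-I, was at 21.6 ± 1.14 and 138 ± 1.66 CPM, and Zbp1, a sensor of Z-form nucleic acid, at 0.0678 ± 0.0694 and 1.19 ± 0.196 CPM.

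**Figure D3:**
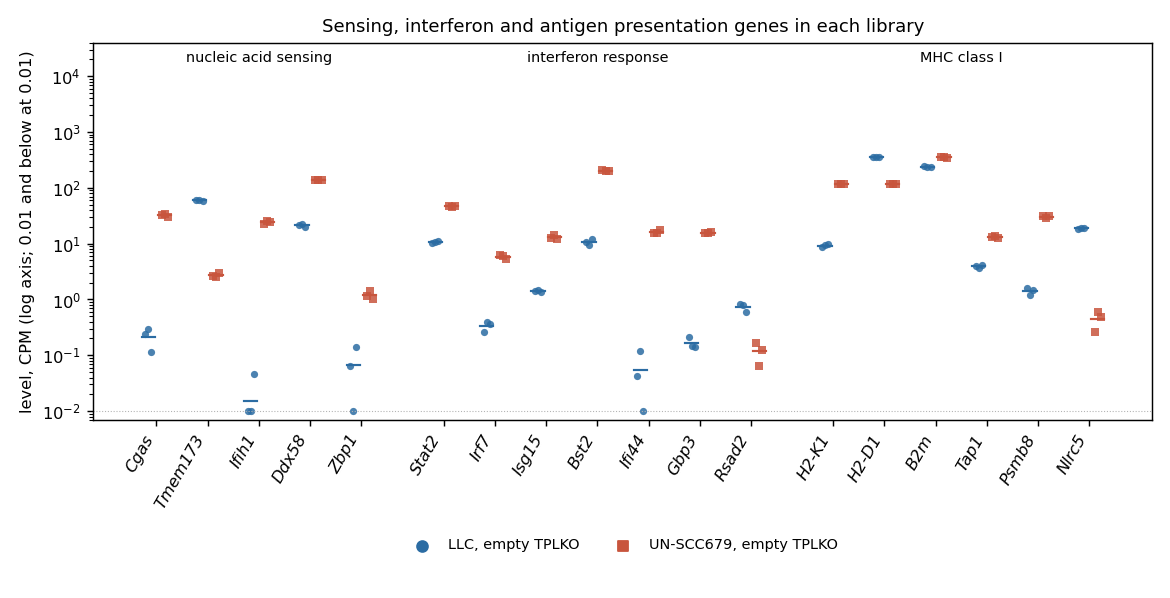
Level of 18 genes of nucleic acid sensing, interferon response and MHC class I presentation in CPM on a log axis, one point per library (3 per line) and a bar at the mean, for LLC (circles) and UN-SCC679 (squares), with values of 0.01 and below drawn at 0.01. Cgas is higher in UN-SCC679 and Tmem173 in LLC, the response genes apart from Rsad2 are higher in UN-SCC679, and H2-K1 and H2-D1 lie on opposite sides.

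Antigen presentation by MHC class I displays peptides of the cell to T cells. Of 20 genes tested, 16 were higher in UN-SCC679 and 4 in LLC (median 1.51). The 2 classical heavy chain genes lay on opposite sides: H2-K1 was at 8.64, 9.49 and 9.68 CPM in LLC and 119.7, 116 and 119 CPM in UN-SCC679, and H2-D1 at 361, 361 and 365 and 116, 119 and 118 CPM. The strains carry different H2 alleles and the counts were assigned to reference transcripts, so the levels of these and the H2-Q and H2-T genes are uncertain between the lines. B2m, the light chain, which both strains encode outside the H2 region, was 1.47-fold higher in UN-SCC679 (240.2 ± 3.91 and 354 ± 9.78 CPM). Psmb8 and Psmb9, subunits of the immunoproteasome, were 21.02-fold and 19.5-fold higher in UN-SCC679, and the peptide transporter genes Tap1 and Tap2 3.37-fold and 3.999-fold. Calr, the chaperone calreticulin, was at 547 ± 7.34 and 3142 ± 6.60 CPM. Nlrc5, the transactivator of class I genes, was the reverse, with 18.4, 18.9 and 18.95 CPM in LLC and 0.262, 0.590 and 0.493 CPM in UN-SCC679.

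Secreted and surface signals to immune cells were mixed. Of 18 tested chemokines and cytokines, 10 were higher in LLC and 7 in UN-SCC679. Ccl2, which attracts monocytes, was at 99.4, 98.1 and 95.97 CPM in LLC and 0.357, 0.481 and 0.419 CPM in UN-SCC679, and its relative Ccl7 at 16.7 ± 0.831 CPM in LLC with 2 counts in UN-SCC679. Spp1, the gene of osteopontin, was at 1376 ± 27.3 and 258 ± 3.27 CPM, and Il11, a cytokine of the IL-6 family, at 15.9 ± 1.25 and 0.462 ± 0.153 CPM. On the other side, Lif, of the same family, was 4.47-fold and Cxcl16 8.18-fold higher in UN-SCC679. The checkpoint ligand gene Cd274, which encodes PD-L1, was low and not called, at 4.43, 3.90 and 4.09 CPM in LLC and 5.08, 5.23 and 3.65 CPM in UN-SCC679 (log2 difference 0.17, adjusted p = 0.292). Without UN-SCC679 library 3 it was called higher in UN-SCC679 (log2 0.31, edgeR adjusted p = 0.0365), and with sh3 higher in LLC (log2 -1.88, edgeR adjusted p = 4.88e-10). Ligands of the killer cell receptor NKG2D differed by gene: Raet1e and Raet1d were at 27.1 ± 0.781 and 14.7 ± 0.715 CPM in LLC and 0.0538 ± 0.0471 and 0.143 ± 0.0549 CPM in UN-SCC679, and Ulbp1 was 4.35-fold and H60b 40.2-fold higher in UN-SCC679. Counts were assigned to reference transcripts, so levels of these ligand genes are uncertain where A/J sequence differs, and this was not tested. Nt5e, the gene of CD73, which makes adenosine, was 9.73-fold higher in UN-SCC679, and Cd47, which restrains phagocytosis, 2.62-fold higher in LLC.

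Complement genes were also split, 6 of 14 tested being higher in UN-SCC679 and 7 in LLC, against 42% and 40.9% of all tested genes. C3, the central component, was at 12.1 ± 0.747 CPM in LLC and 0.0710 ± 0.0259 CPM in UN-SCC679. Clu, the gene of clusterin, was 16.8-fold and Masp1, a protease of the lectin pathway, 4.70-fold higher in UN-SCC679.

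Metabolic genes differed by pathway. Of 23 tested genes of cholesterol synthesis and its regulation, 22 were higher in UN-SCC679, none was called higher in LLC, and Fdft1, the gene of squalene synthase, was not called (34.4 ± 1.10 and 35.2 ± 1.97 CPM). The median log2 difference was 1.33. Msmo1, a sterol demethylase, was at 38.6, 40.3 and 38.8 CPM in LLC and 401, 401 and 405 CPM in UN-SCC679. Fdps, which makes farnesyl diphosphate, was 6.80-fold higher in UN-SCC679, whereas Srebf2, the regulator, was 1.52-fold higher.

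Glycolysis and hypoxia genes were mostly higher in LLC, 20 of 31 tested against 7 higher in UN-SCC679 (median -0.73). Eno1, the gene of enolase 1, was at 2053, 2050.5 and 2019.5 CPM in LLC and 413, 394 and 405 CPM in UN-SCC679. Ldha, lactate dehydrogenase A, was at 1695, 1709 and 1663 and 642, 650.2 and 656 CPM, and Gapdh at 1989, 1972 and 1959 and 815, 764 and 759 CPM. Pfkp, the platelet isoform of phosphofructokinase, was 13.5-fold higher in LLC and the isoform Pfkm did not pass the test. Egln3, a prolyl hydroxylase induced by hypoxia, was at 67.01 ± 2.62 and 0.587 ± 0.136 CPM. Exceptions were Ankrd37, also induced by hypoxia, at 0.521 ± 0.0907 CPM in LLC and 15.2 ± 0.308 CPM in UN-SCC679, and Pfkfb3, which raises the activator of phosphofructokinase (2.85-fold higher in UN-SCC679). Pgk1 was level, at 648 ± 8.76 and 653 ± 13.5 CPM.

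NRF2 targets and xenobiotic enzymes were split, with 21 of 35 higher in LLC and 14 in UN-SCC679. Nqo1, a quinone reductase and a common marker of NRF2 activity, was at 126, 125 and 126 CPM in LLC and 0.453, 0.656 and 0.395 CPM in UN-SCC679. Slc7a11, the cystine importer, was 2.73-fold and Gclc, which starts glutathione synthesis, 2.31-fold higher in LLC. Hmox1, heme oxygenase 1, was 2.65-fold and Gclm, the modifier subunit of the same enzyme as Gclc, 1.95-fold higher in UN-SCC679. Cyp1b1, a cytochrome P450, was at 0.0923 ± 0.0264 and 6.85 ± 0.528 CPM and Aldh3a1, an aldehyde dehydrogenase, at 0.0522 ± 0.0541 and 6.26 ± 0.215 CPM, both higher in UN-SCC679. Ahr, the gene of the aryl hydrocarbon receptor, was at 7.27 ± 0.369 and 43.7 ± 1.16 CPM.

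Genes of DNA replication were slightly higher in LLC, 31 of 42 against 6 higher in UN-SCC679, but the differences were small (median -0.38) and 3 of the former reached 2-fold. Mcm3, of the replicative helicase, was 1.999-fold and Cdc45, its cofactor, 2.35-fold higher in LLC. Orc1, of the origin recognition complex, was 2.09-fold higher in UN-SCC679, and Mcm2 was not called. Genes of G2 and mitosis were evenly divided, 20 and 18 of 40, against 42% and 40.9% of all tested genes. The proliferation marker Mki67 was at 453 ± 7.86 CPM in LLC and 485 ± 21.2 CPM in UN-SCC679.

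**Figure D4:**
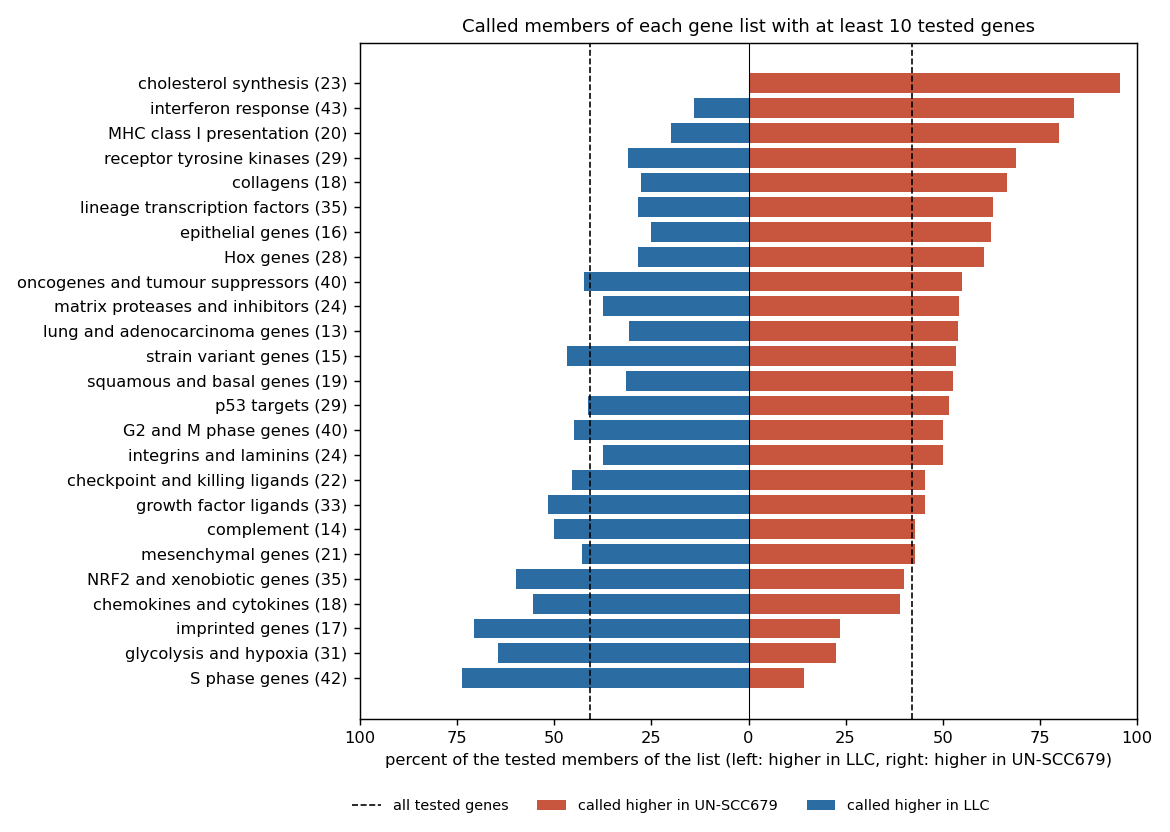
Percent of the tested members of each gene list that were called higher in UN-SCC679 (bars to the right) or higher in LLC (bars to the left), for lists with at least 10 tested genes, whose number is in brackets. Dashed lines mark the shares over all tested genes, 42% and 40.9%. Cholesterol synthesis, interferon response and MHC class I presentation lie far to the right, S phase, glycolysis and imprinted genes far to the left.

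Imprinted genes, which are normally transcribed from one parental copy, were mostly higher in LLC: 12 of 17 tested, against 4 higher in UN-SCC679 (median -3.01). Peg3, a zinc finger gene, was at 67.7, 67.6 and 65.1 CPM in LLC and had 0 counts in UN-SCC679. Peg10, which derives from a retrotransposon, was at 95.8, 97.7 and 96.6 CPM in LLC and had 2 counts in UN-SCC679, and its neighbour Sgce was at 14.4 ± 1.32 and 0.0378 ± 0.0339 CPM. Grb10, a growth-restraining adaptor, was at 152 ± 4.31 and 2.71 ± 0.0770 CPM, Igf2r at 166 ± 0.0248 and 20.7 ± 0.465 CPM, and Snrpn at 6.31 ± 0.607 CPM with 1 count in UN-SCC679. Plagl1, another zinc finger gene, was the reverse, with 0 counts in LLC and 2.17 ± 0.326 CPM in UN-SCC679. Copg2, Zrsr1 and Impact were the other members called higher in UN-SCC679, so members of separate imprinted regions mostly differed in one direction.

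Few germline genes were expressed: 7 of 35 could be tested. The meiotic gene Sycp1 and Tdrd9, of the piRNA pathway, had 0 counts in LLC and 4.12 ± 0.645 and 5.997 ± 0.619 CPM in UN-SCC679, while Xlr3c, of an X-linked family with near-identical members, was at 24.4 ± 0.498 CPM in LLC and 1.76 ± 0.565 CPM in UN-SCC679. Of genes known to differ between mouse strains, Glo1, duplicated in A/J mice, was at 103, 105 and 99.96 CPM in LLC and 295, 288 and 281 CPM in UN-SCC679, a 2.80-fold difference. Gbp2b had 0 counts in LLC and 14.7 ± 1.38 CPM in UN-SCC679, and Klra2 was at 6.06 ± 0.104 and 0.123 ± 0.0451 CPM. Of the Y-linked genes, Ddx3y had 6 and 12 counts and Eif2s3y 6 and 1 in LLC and UN-SCC679, near 0 in both, and Kdm5d was at 1.59 and 2.37 CPM.

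Some genes were expressed in one line and silent in the other. With silence taken as 3 counts or fewer over the 3 libraries and expression as a mean of at least 5 CPM, 132 genes were silent in LLC and 75 in UN-SCC679, of which 82 and 44 had 0 counts. The highest of those silent in LLC were Cd24a, a small surface glycoprotein, at 469.7, 456 and 452 CPM in UN-SCC679, Wfdc2, a secreted protein of airway and gland epithelia, at 342, 353 and 354 CPM, and Tenm3, a teneurin adhesion protein, at 333, 328 and 324 CPM. Ifi202b, an interferon-inducible gene whose expression is known to depend on the mouse strain, was at 69.9 ± 0.365 CPM with 0 counts in LLC. Those silent in UN-SCC679 were led by Nid1, followed by Prune2 at 134, 144 and 142 CPM in LLC, Lgi2, a secreted protein of neurons, at 107, 106 and 107 CPM, and the imprinted Peg10 and Peg3. Trpa1, an ion channel of sensory neurons, was at 53.8, 53.3 and 52.5 CPM in LLC and had 0 counts in UN-SCC679, and Galk1, the galactokinase gene, was at 60.9, 62.5 and 66.7 CPM with 0 counts.

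Most silent genes of either line stayed low in other libraries of that line. Of the 132, 131 were under 1 CPM in the LLC sh3 libraries and 93 had 3 counts or fewer there, and 1, the unnamed gene model AC124513.1, reached 9.10 ± 3.87 CPM. In UN-SCC679, 114 of them were still at 5 CPM or more with sh3 and 102 with empty pLENTI6. Of the 75 silent in UN-SCC679, 61 were under 1 CPM with sh3 and 74 with empty pLENTI6, and 21 and 56 had 3 counts or fewer. Whether these shares differ was not tested. With sh3, 2 of them, Trim30d and Peg10, reached 5 CPM. Galk1 and Prune2 had 277 and 86 counts with sh3 and 0 and 3 with empty pLENTI6, while Lgi2 and Trpa1 had 0 counts in both.

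The chromosomes differed in their median. Over all tested genes the median log2 difference was 0.014. It was 0.68 for the 705 tested genes of chromosome 3, 0.46 for chromosome 8 and 0.44 for chromosome 10. Of the autosomes, the lowest medians were those of chromosome 17, at -0.55 over 736 genes, and chromosome 15, at -0.35. In the sh3 libraries, which share no library with these, the medians of chromosomes 3, 8, 10, 17 and 15 were 0.73, 0.26, 0.37, -0.24 and -0.28, in the same directions and, chromosome 3 apart, closer to 0. The 13 tested genes of the mitochondrial genome had a median of -0.36, and of 0.048 in the sh3 libraries. Chromosome numbers of the lines were not measured.

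The same lines were compared in the sh3 libraries, where Dstyk was at 23.2 ± 0.787 CPM in LLC and 26.3 ± 0.871 CPM in UN-SCC679, below the empty libraries of each line. Of 11725 genes called with the empty vector and tested with sh3, 9360 (79.8%) were called in the same direction, 1254 (10.7%) in the opposite direction and 1111 (9.48%) were not called, where 84.3% of all genes tested with sh3 were called. Of the 4891 that differed at least 2-fold, 4446 (90.9%) kept their direction and 109 (2.23%) were called in the opposite one, where 37.2% of all genes tested with sh3 were called at least 2-fold. The 4446 and 109 were called with sh3 at any size, so the 37.2% is not their background. The share at the same threshold is the 84.3% called with sh3 in either direction. Lineage regulators kept their sides: Nkx2-1 was at 0.0377 ± 0.0653 CPM in LLC sh3 and 53.1 ± 2.04 CPM in UN-SCC679 sh3, Sox2 at 0 and 34.2 ± 1.22 CPM, and Prrx1 at 299 ± 2.38 and 9.72 ± 0.262 CPM. Interferon genes also did, 40 of the list being called in the same direction with sh3. Cgas was at 0.117 ± 0.0314 and 50.5 ± 1.88 CPM and Tmem173 at 39.1 ± 1.59 and 5.39 ± 0.133 CPM.

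Some genes lay on opposite sides in the empty and the sh3 libraries. Of the cholesterol list, 16 genes were called in the same direction with sh3 and 5 in the opposite one. Hmgcs1, the first committed enzyme, was at 117 ± 2.50 and 168 ± 5.002 CPM with the empty vector and 169 ± 1.23 and 164 ± 4.02 CPM with sh3 in LLC and UN-SCC679. C3 was at 12.1 ± 0.747 and 0.0710 ± 0.0259 CPM with the empty vector and 13.8 ± 0.418 and 24.2 ± 1.78 CPM with sh3. S100a4, a calcium-binding protein of mesenchymal cells, was at 721 ± 15.2 and 169 ± 2.32 CPM with the empty vector and 234 ± 3.01 and 591 ± 15.3 CPM with sh3. The line differences of C3 and S100a4 changed between the empty and the sh3 libraries in a test on the 12 TPLKO libraries (interaction log2 8.20 and 3.44, adjusted p = 3.58e-15 and 6.51e-20). They were chosen for the reversal after their values were seen. Of the other genes named above, B2m, Dstyk, Hbegf, Pdgfra, Rsad2, Spp1, Srebf2 and Trim30d were also called in opposite directions in the empty and the sh3 libraries. The differences of Erbb3, F11r, Kdm5d, Mx1 and Vwf were called with the empty vector and not with sh3. With empty pLENTI6 in place of empty TPLKO for UN-SCC679, Ifit2, Ifngr2, Mmp14, Pdgfra, Pfkfb3, Rsad2 and S100a4 were called in the opposite direction, against the same LLC libraries, and Erbb3, Mdm2, Mki67 and Trp53 were not called.

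**Figure D5:**
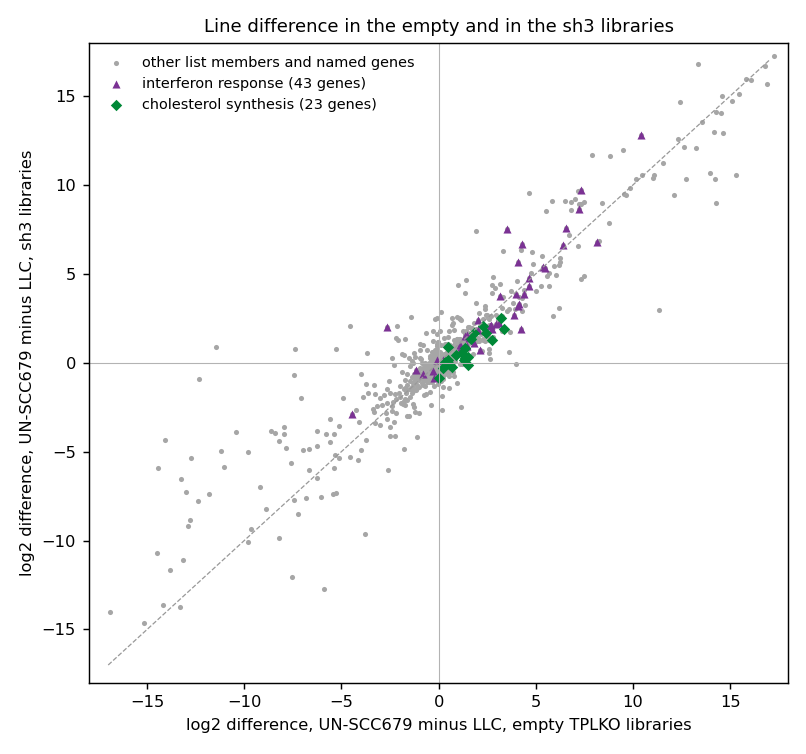
Log2 difference between the lines (UN-SCC679 minus LLC) in the empty TPLKO libraries (horizontal) and in the sh3 libraries (vertical) for the list members and named genes, 3 libraries per line and arm, with interferon response genes as triangles and cholesterol synthesis genes as diamonds. The dashed line marks equal differences. Interferon genes mostly lie in the upper right, higher in UN-SCC679 in both arms. Cholesterol genes lie above 0 with the empty vector, and with sh3 some lie below 0, 6 of them called higher in LLC.

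Transcript shares within a gene were compared between the lines for 9 genes and 40 transcripts, with an exact permutation test that with 3 against 3 libraries cannot give a p below 0.1. Of these transcripts 18, in 8 genes, had no overlap between the libraries of the lines (2-sided exact permutation p = 0.1, and 0.222 after Benjamini-Hochberg adjustment), a p that this design cannot go below. Shares of one gene depend on each other, so the 18 are not separate results, and the share over all transcripts was not computed. Fgfr2, whose forms were unstable, entered through Fgfr2-208 alone, at 0% in LLC and 3.25, 1.99 and 5.10% in UN-SCC679. Of Tpm1, a tropomyosin gene with many splice forms, Tpm1-213 was the main form in both, with 35.3, 38.5 and 37.5% of its counts in LLC and 36.6, 36.6 and 35.8% in UN-SCC679. Tpm1-211 held 17.8, 14.5 and 18.1% of its counts in the LLC libraries and 5.78, 4.92 and 5.96% in those of UN-SCC679. Tpm1-202 held 7.03, 8.53 and 5.46% and 14.3, 15.1 and 13.9%. Ctnnd1, the gene of p120 catenin, had 21.97, 18.5 and 21.7% of its counts on Ctnnd1-217 in LLC and 7.43, 10.5 and 7.23% in UN-SCC679. Tpm1-211, Tpm1-202 and Ctnnd1-217 were among those without overlap and were chosen after their values were seen. Pkm-201, the main transcript of pyruvate kinase M, held 70.9, 70.3 and 71.4% in LLC and 72.5, 72.4 and 72.6% in UN-SCC679, a small difference that also did not overlap. The estimates of Trp63 and Fgfr2 forms were unstable between libraries of one line: Trp63-205 held 92.8, 0 and 0% of the Trp63 counts in UN-SCC679 and Fgfr2-217 45.7, 0 and 27.99% of the Fgfr2 counts in LLC, so no form was assigned to these genes.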

How the data were processed

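RNA of the 6 libraries was measured with a stranded Illumina mRNA kit and reads of 75 bases on a NextSeq instrument, per the labels' protocols, which name single-end and paired-end runs without saying which library had which. The deposited values are expected counts, that is, estimated counts per transcript that the authors made with kallisto for mouse build mm10, per the submitters' processing notes. Versions are not given in the sources used here. The deposited effective lengths, which were the same in all libraries to within 0.0226 bases, gave TPM. Reads were assigned to reference transcripts, so where A/J sequence differs from the reference, counts of UN-SCC679 may be lowered, and this was not tested. Near-identical genes share reads, which makes the H2, Xlr3, Gbp and Trim30 families, Ifi202b and ribosomal proteins uncertain.

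Of 118489 transcripts listed, 1673 matched no gene of GENCODE M21 and held 0.514 to 0.593% of the counts; they were left out. Counts were summed over the transcripts of each of 36047 genes, rounded, scaled by trimmed means of M-values (TMM), filtered at edgeR's defaults (a count of 10 and a total of 15) and tested with edgeR 4.0.16 in R 4.3.3. CPM of the empty TPLKO libraries use the scaling of this fit and those of other libraries a scaling over all 18. Standard errors come from the F statistic. The fit was tested on simulated data in which few genes changed and all genes had the same spread. Most genes were called in the real comparison, so the simulation does not test calls at that share. Libraries of one line differed by more than sampling noise, so none was counted as a copy of another. Repeated reads of a molecule are not told apart.

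Groups came from the sample titles. Lists of genes, and the libraries described here, were chosen with earlier results of these data known. Named genes are Dstyk, the 15 widest called differences each way at 20 CPM or more, up to 4 called members per list and direction at 5 CPM or more, a set of defining genes, the 10 highest genes silent in the other line and the 10 highest in TPM; others are named as list members with their values. Xist and other noncoding genes were not analysed here, and a few list members are not reported here. Alternatives were other scalings and filters, DESeq2 1.42.0, limma 3.58.1 on log2(TPM + 1), a length offset, all 18 libraries, a replicate block, leaving out each library, the sh3 libraries and the empty pLENTI6 libraries.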

Additional observations from a re-analysis of the deposited data

Results flagged for a closer look

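For the genes below the difference between the lines itself differed between the empty TPLKO and the sh3 libraries, being called in opposite directions without overlap in either arm, by a test of that difference on 12 libraries. As the change of the log2 difference (sh3 minus empty) it was 8.20 for C3, 4.71 for Rsad2, 3.44 for S100a4, 2.74 for Spp1, 2.03 for Pdgfra, 0.57 for mt-Atp6 and 0.40 for Dstyk, whose level the sh3 construct targets. It was -1.28 for B2m, -2.80 for Hbegf and -0.71 for Srebf2. Trim30d, which had 0 counts in the empty and 2858 in the sh3 libraries of UN-SCC679, gave 12.43, a fitted value that depends on the counts near 0. In the empty libraries Spp1 was at 1376 ± 27.3 and 258 ± 3.27 CPM in LLC and UN-SCC679, and in the sh3 libraries at 1603 ± 7.34 and 1996 ± 13.2 CPM. B2m was at 240.2 ± 3.91 and 354 ± 9.78 CPM in the empty and 545 ± 8.02 and 328 ± 10.2 CPM in the sh3 libraries. Srebf2 was at 198 ± 4.52 and 301 ± 2.02 CPM in the empty and 299 ± 2.65 and 275 ± 6.41 CPM in the sh3 libraries. The adjusted p of the test of the difference (edgeR) was at most 3.50e-05 for these genes. They were picked for their reversal in the same 12 libraries, so a small p follows from the choice and is no separate support. Of 11725 genes called with the empty vector and tested with sh3, 1254 (10.7%) were called in the opposite direction.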

How the results depend on the processing

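The number of genes called (11900) lay between 10574 (length offset) and 12685 (no filter), and that of at least 2-fold differences (5065) between 3535 (limma on log2(TPM + 1)) and 5905 (no filter), under every alternative run on the empty libraries. Leaving out 1 library gave 11706 to 11841 calls. The labels do not say whether equal replicate numbers pair libraries. Deviations of same-numbered libraries correlated at 0.027, 0.00075 and 0.053. LLC libraries 1 and 3 correlated best with their own number and LLC library 2 did not. Correlations this weak over 3 libraries per line cannot decide on pairing. With the replicate number as a block 11703 genes were called, 5010 of them at least 2-fold. Silence at 0 counts in place of 3 gave 82 genes in LLC and 44 in UN-SCC679, and a level of 10 CPM in place of 5 gave 79 silent in LLC, choices made after seeing the data.

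With a filter of 1 CPM the genes called higher in LLC fell to 3 squamous and 2 epithelial genes, and those higher in UN-SCC679 to 0 leukocyte and 0 endothelial markers, because fewer genes were tested. Endothelial markers higher in UN-SCC679 were also 0 with limma and 0 in the sh3 libraries, and 1 endothelial marker was higher in LLC without a filter. In the fit of all 18 libraries 7 epithelial genes were higher in LLC. Germline genes higher in UN-SCC679 were 5 with no filter and 5 with all 18 libraries. In the sh3 libraries, 14 chemokines and cytokines, 10 S phase genes and 1 neuroendocrine marker were higher in UN-SCC679, and 6 cholesterol genes, 5 Hox genes, 2 sex chromosome genes and 1 leukocyte marker were higher in LLC; the cause was not tested. Leaving out 1 library gave 0 to 1 endothelial markers higher in UN-SCC679 and 0 to 1 neuroendocrine markers higher in LLC.

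Chromosome medians with library size alone were 0.42 (chromosome 10), 0.44 (8), -0.58 (17) and -0.37 (15), and in the sh3 libraries 0.73 (3), 0.37 (10), 0.26 (8), -0.24 (17) and -0.28 (15). Leaving out 1 library gave 0.43 to 0.45 for chromosome 10, 0.45 to 0.48 for 8, 0.65 to 0.69 for 3, -0.58 to -0.53 for 17 and -0.38 to -0.35 for 15.

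Of single genes, the log2 difference changed sign in the sh3 libraries for B2m (-0.77), C3 (0.77), Cd274 (-1.88), Dstyk (0.14), Erbb3 (-0.065), Fdft1 (-0.87), Hbegf (-2.68), Hmgcs1 (-0.082), Ifnar1 (0.16), Mcm2 (-0.35), Pdgfra (1.05), Rb1 (-0.47), Rsad2 (2.02), S100a4 (1.30), Spp1 (0.28), Srebf2 (-0.15), Trim30d (0.90) and mt-Atp6 (0.13). With empty pLENTI6 libraries for UN-SCC679, which share the LLC libraries, it changed sign for Ifit2 (0.30), Ifngr2 (0.16), Mcm2 (-0.093), Mki67 (-0.015), Mmp14 (-0.61), Pdgfra (0.34), Pfkfb3 (-0.39), Rb1 (-0.21), Rsad2 (1.13), S100a4 (0.067) and Zeb1 (-0.10). Cd274, Fdft1, Ifnar1, Mcm2, Rb1 and Zeb1 were not called in the empty TPLKO libraries, and Erbb3 (sh3) and Mki67 (pLENTI6) were not called in the other fit. Calls were also lost for Fat2 with limma (adjusted p = 0.192), for Ifit2 (0.193), Mki67 (0.127) and Mmp14 (0.145) with the length offset in edgeR, for Mki67 with all 18 libraries (0.203) and without UN-SCC679 library 3 (0.0552), and for Kdm5d with the block (0.0528) and without LLC library 1 (0.0581) or UN-SCC679 library 1 or 2 (0.0787 and 0.0752). Calls were gained in an alternative fit for Cd274, Fdft1, Ifnar1, Itga4, Mcm2, Pfkm, Pgk1, Rb1 and Zeb1, which were not called in the main fit. Pfkm was called higher in LLC with library size alone (edgeR adjusted p = 0.0243), with no filter (0.0225) and in the sh3 libraries (6.11e-11), among others. The causes were not tested.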

Other observations

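The most abundant RNAs were largely shared. Per length, mitochondrial mt-Atp6 was highest in both lines, at 14172 TPM in LLC and 10935 TPM in UN-SCC679, and Eef1a1, which brings aminoacyl-tRNA to the ribosome, and the mitochondrial cytochrome oxidase genes followed. Rps2, a ribosomal protein gene with processed pseudogenes, was at 4934 TPM in LLC and 1389 TPM in UN-SCC679. Ftl1, the light chain of ferritin, was at 3116 and 6419 TPM.

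Further genes had 3 counts or fewer in one line. LLC expressed the reproductive homeobox genes Rhox2d and Rhox2h of the X chromosome at 40.7, 41.1 and 42.00 and 27.4, 24.1 and 26.05 CPM, with 0 counts in UN-SCC679. These genes have near-identical copies. Crmp1, a cytoskeletal protein of growing axons, was at 28.96, 29.3 and 30.5 CPM in LLC with 0 counts in UN-SCC679, and Ugt1a7c, a glucuronosyltransferase, at 56.9, 54.4 and 52.1 CPM with 3 counts. UN-SCC679 expressed Ces1g, a carboxylesterase, at 177, 179.6 and 177 CPM with 2 counts in LLC, Pak3, a kinase of neurons, at 119, 121 and 114 CPM with 0 counts in LLC, and Pmepa1, a target and inhibitor of TGF-beta signalling, at 56.3, 51.2 and 52.3 CPM with 0 counts.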
